A study of Homo sapiens with 15 samples.

Results

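Genes of the BCL2 family, which set whether a cell enters mitochondrial apoptosis, were followed across 5 groups of MIA PaCa-2 cells. The 10 genes were taken by symbol from the 60107 genes listed for each library. Of these, 7 are proapoptotic (BAX, BAK1, BAD, BCL2L11, BBC3, PMAIP1 and BID) and 3 are antiapoptotic (MCL1, BCL2L1 and BCL2). The rule that picks them names genes and uses no measured value, although the genes were listed with earlier results of these data known. BAX, BAK1, BAD, BCL2L11 (BIM) and BBC3 (PUMA) are also the proapoptotic genes that the study named from these same libraries, so their direction is not independent evidence.

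BCL2 family proteins meet at the outer mitochondrial membrane. BAX and BAK1 are the effectors that form pores in it and release cytochrome c. BCL2, BCL2L1 (BCL-XL) and MCL1 hold the effectors back, and the BH3-only proteins BAD, BCL2L11, BBC3, PMAIP1 (NOXA) and BID either neutralise these guardians or activate BAX and BAK1 directly. Much of this control acts on the proteins, through phosphorylation of BAD, cleavage of BID and rapid turnover of MCL1, and mRNA counts do not show it.

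MIA PaCa-2 is an established human pancreatic carcinoma line. Its cells were exposed for 24 h to vehicle (Ctrl) or to 5 µM of Lys05, BAQ12, BAQ13 or BAQ12O, and 3 libraries were made per group. Lys05 is a bisaminoquinoline inhibitor of autophagy that accumulates in lysosomes. BAQ12 and BAQ13 join its structure with that of a lysosomotropic detergent, assemble into nanoparticles and differ from each other by a single methylene unit, whereas BAQ12O is known here only by its code, which the series text shortens to 12O. For the libraries, a stranded paired-end kit is given in the paper's methods, but the labels give a kit that reads the 3′ end of mRNAs. The labels do not say whether replicates came from separate cultures, so p-values measure only the spread between these libraries, which may be technical. The line also limits the groups as a model, since all 15 libraries come from 1 cell line at 1 dose and 1 time.

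Between 1586566 and 2500551 reads per library were counted on genes (median 2230594), and 3 reads correspond to a normalised read count of 2.49 to 4.14, which was taken as the floor. The labels call the cells epithelial. KRT8, KRT18 and KRT19 were read in every group, KRT7, EPCAM and CDH1 were at or near 0, and VIM, a mesenchymal filament gene, had 10458 ± 306 normalised counts in Ctrl (SD, n = 3). The other mesenchymal markers listed, CDH2 and COL1A1, had means of 0 and 0.955 normalised counts in Ctrl. Pancreatic markers (PRSS1, CPA1, CFTR, PDX1 and INS) summed to at most 3.77 and blood and endothelial markers (PTPRC, CD3E, HBB and PECAM1) to at most 5.72 normalised counts in any library. The summed epithelial markers lay between 1715 and 1795 normalised counts in Ctrl, between 1388 and 1574 with Lys05, between 1381 and 1556 with BAQ12, between 1362 and 1380 with BAQ13, and between 1364 and 1487 with BAQ12O, and the part of this difference in the results was not tested. KRT8 fell with BAQ12 (log2 fold change -0.58, adjusted p = 0.00607), BAQ13 (-0.85, adjusted p = 3.77e-05) and BAQ12O (-0.60, adjusted p = 0.00443), and KRT18 with BAQ13 (-0.50, adjusted p = 0.00261) and BAQ12O (-0.43, adjusted p = 0.0246). KRT19 did not pass the test in any treatment, at 0.12 with BAQ13 (adjusted p = 0.449).

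2 libraries stood apart from their groups. The log2 difference between BAQ12 replicate 3 and BAQ12 replicates 1 and 2 had SDs of 0.624 and 0.578 over 8320 genes, whereas that between replicates 1 and 2 had an SD of 0.264. For BAQ13 replicate 1 the SDs were 0.336 and 0.414 against BAQ13 replicates 2 and 3, which differed from each other with an SD of 0.279. In the other groups, 2 libraries differed with an SD of 0.261 to 0.306, so that BAQ13 replicate 1 stood apart far less than BAQ12 replicate 3. The deviations of these 2 libraries from their groups ran alike across the 8320 genes (Pearson's r = 0.683, a description across genes, which are not independent). Both had the highest BAX and BCL2L1 and the lowest BBC3, MCL1 and BCL2 of their groups. Results that rest on BAQ12 replicate 3 are therefore given with and without it, and where it matters without BAQ13 replicate 1 as well.

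What unites the 10 proteins is the BH3 motif, a short helix in which a leucine is followed 4 residues later by a small residue and an aspartate, and which one member inserts into the groove of another. The coding sequence of this core is shown for the effectors, for the BH3-only genes with the lowest p-values and for the antiapoptotic genes that could be tested. In the effectors and BH3-only proteins it encodes the helix that is inserted into the groove. Sequences are in sense orientation from GENCODE 29 (GRCh38), with the leucine codon and the codons of the small residue and the aspartate in capitals.
BAX, chr19:48955787-48955813, plus strand: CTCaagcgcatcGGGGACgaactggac
BAK1, chr6:33575390-33575416, minus strand: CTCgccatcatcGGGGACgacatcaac
BAD, chr11:64271625-64271651, minus strand: CTCcggaggatgAGTGACgagtttgtg
BBC3, chr19:47226582-47226608, minus strand: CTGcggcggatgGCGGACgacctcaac
PMAIP1, chr18:59902673-59902699, plus strand: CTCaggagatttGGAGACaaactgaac
BID, chr22:17739418-17739444, minus strand: CTCgcccaggtcGGGGACagcatggac
MCL1, chr1:150578868-150578894, minus strand: TTAcgacgggttGGGGATggcgtgcag
BCL2L1, chr20:31721925-31721951, minus strand: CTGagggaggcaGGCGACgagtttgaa
In all 8 the window lies in a coding exon (exon 3 of 6 in BAX). The small residue is glycine in 6 of the 8, serine in BAD and alanine in BBC3. The pattern is short, and 35.1% of 19536 annotated proteins hold it, so that it marks the family only together with its known position. The read counts below are sums over each gene and do not come from these windows.

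Across the 10 comparisons made, no member passed the adjusted threshold when all 15 libraries were fitted together. Differences were tested by limma on log2(normalised count + 1), in which a fold change of a weakly counted gene is understated, and p-values were adjusted over the 10495 genes that passed a filter on low counts. 9 of the 10 members passed it, and BCL2 did not. As these are bulk samples, fewer cells of a kind and less RNA per cell cannot be told apart. The count of members called at an adjusted p-value under 0.05 was 0 with Lys05, 0 with BAQ12, 0 with BAQ13 and 0 with BAQ12O against Ctrl, where 0.238%, 0.981%, 5.77% and 1.48% of all genes tested were called. At an unadjusted p-value under 0.05 the counts were 0, 2, 2 and 1 of 9, beside 4.98%, 11.8%, 19.4% and 12.8% of all genes. edgeR on the recovered reads called 0, 0, 1 (BAD) and 0 members, beside 0.229%, 0.972%, 6.57% and 1.52% of all genes, and DESeq2 called 0 in all 4, beside 0.257%, 1.07%, 5.05% and 1.32%. In data simulated for BAQ13 against Ctrl, limma recovered 60% of genes changed 2-fold and 97% of genes changed 4-fold. Part of the 2-fold changes, and more of the smaller ones, would thus be missed in such data. The simulation drew all libraries of a gene with the same spread, at the depths of the real libraries. It was not repeated at other depths, so it cannot tell depth from spread as the reason.

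**Figure D1:**
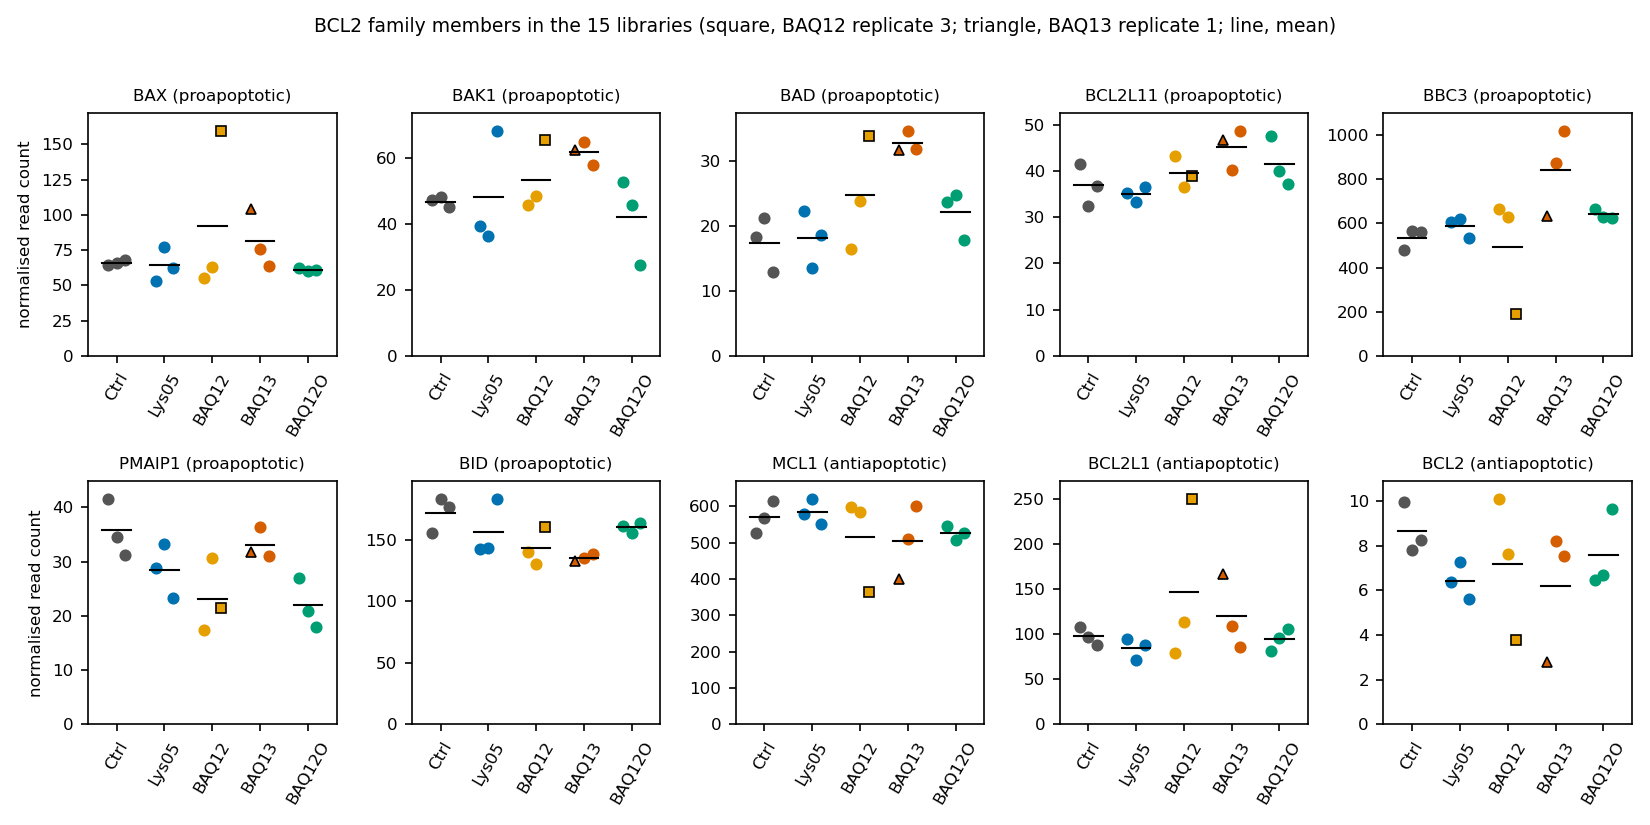
Normalised read count (linear axis from 0) of each of the 10 genes in each of the 15 libraries, by group, with the group mean as a line. BAQ12 replicate 3 (square) and BAQ13 replicate 1 (triangle) are marked, and the 3 BAQ13 libraries of BAD lie at 31.7 to 34.6, above the 3 Ctrl libraries at 12.9 to 21.2.

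Neither of the effectors, BAX and BAK1, passed the test in any treatment. BAX (ENSG00000087088, chr19:48954815-48961798) had normalised counts of 64.8, 65.9 and 67.9 in Ctrl, 53.2, 77.1 and 62.5 with Lys05, 55.03, 62.9 and 159.5 with BAQ12, 104.5, 75.6 and 63.7 with BAQ13, and 62.5, 60.1 and 60.7 with BAQ12O. The 2 high values belong to the libraries that stood apart. The other BAQ12 libraries lay below all Ctrl libraries, and BAX with BAQ12O also lay wholly below Ctrl, with means of 61.1 ± 1.3 and 66.2 ± 1.6 (SD, n = 3). The log2 fold change of BAX with BAQ12 was 0.31 (95% interval -0.29 to 0.91, adjusted p = 0.661) with all 3 libraries and -0.17 (-0.54 to 0.20, adjusted p = 0.873) without replicate 3.

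BAK1 (ENSG00000030110, chr6:33572547-33580293) had 47.3, 48.0 and 45.0 normalised counts in Ctrl and 62.5, 64.7 and 57.8 with BAQ13, with no overlap between these groups. It lay at 39.4, 36.4 and 68.1 with Lys05, at 45.9, 48.5 and 65.3 with BAQ12, and at 52.8, 45.8 and 27.6 with BAQ12O, all overlapping Ctrl. With BAQ13 the log2 fold change was 0.39 (95% interval -0.12 to 0.90, adjusted p = 0.408), and it was within 0.20 of 0 in the other 3 groups. For BAQ12 it was 0.17 with replicate 3 and 0.01 without it.

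BAD, a BH3-only sensitiser that binds BCL2 and BCL2L1 and is inactivated by phosphorylation, had the lowest p-value of the family. BAD (ENSG00000002330, chr11:64269830-64284704) had 18.3, 21.2 and 12.9 normalised counts in Ctrl and 31.7, 34.6 and 31.8 with BAQ13, all 3 above Ctrl. With Lys05 the counts were 22.4, 13.5 and 18.7, with BAQ12 16.5, 23.8 and 33.9, and with BAQ12O 23.7, 24.8 and 17.9, all overlapping Ctrl. The ratio of means with BAQ13 was 1.88 and the log2 fold change 0.90 (SE 0.27, 95% interval 0.33 to 1.46), which missed the threshold in the fit of all libraries (adjusted p = 0.0584 by limma). Without BAQ12 replicate 3, which is in neither of the groups compared but enters the shared estimate of the spread, the same fold change had an adjusted p of 0.0143, and with edgeR on all libraries 0.0369. Without BAQ13 replicate 1 as well it was 0.92 with an adjusted p of 0.0248. In the fit without BAQ12 replicate 3 alone, 3 members (BAD, BBC3 and BID) were called with BAQ13, where 13.5% of all genes were. The log2 fold change of BAD with BAQ12 was 0.45 (adjusted p = 0.493 by limma) with replicate 3 and 0.20 (adjusted p = 0.918) without it. BAD rests on 13 to 38 reads per library.

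BBC3, a target of p53 that binds every antiapoptotic member, was highest with BAQ13. BBC3 (ENSG00000105327, chr19:47220822-47232766) had 478.2, 563.9 and 559.9 normalised counts in Ctrl and 634.5, 873.1 and 1017 with BAQ13, again with no overlap. With BAQ12O the 3 values of 665.1, 630.2 and 624.5 also lay above Ctrl, whereas the Lys05 values of 605.9, 619.6 and 534.9 overlapped it. With BAQ12, 664.0 and 629.0 lay above Ctrl and the 190.9 of replicate 3 far below, the lowest BBC3 value of all 15 libraries. The log2 fold change with BAQ13 was 0.63 (SE 0.31, adjusted p = 0.278) with all libraries. Without BAQ12 replicate 3 the SE fell to 0.11 and the adjusted p to 0.00011, and without BAQ13 replicate 1 as well the fold change was 0.82 (adjusted p = 5.01e-12). In that last fit, which was added after seeing the data, BBC3 also passed the threshold with BAQ12 (0.28, adjusted p = 0.0423) and with BAQ12O (0.26, adjusted p = 0.00979). Of all genes, 11.8% were called with BAQ13, 2.09% with BAQ12 and 9.13% with BAQ12O in that fit. With all libraries, BBC3 passed with neither BAQ12 (log2 fold change -0.31, adjusted p = 0.69 by limma) nor BAQ12O (0.26, adjusted p = 0.777). Nor did it pass without BAQ12 replicate 3 alone, at 0.28 (adjusted p = 0.44) with BAQ12 and 0.26 (adjusted p = 0.161) with BAQ12O.

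BID and PMAIP1 lay on the low side. BID (ENSG00000015475, chr22:17734138-17774770), whose protein is cut by caspase-8 to become active, had 155.3, 183.1 and 177.2 normalised counts in Ctrl and 132.5, 134.9 and 138.3 with BAQ13, all 3 below Ctrl. This was a log2 fold change of -0.34 (SE 0.12, adjusted p = 0.101), and the adjusted p was 0.0322 without BAQ12 replicate 3 and 0.0527 (fold change -0.33) without BAQ13 replicate 1 as well. Lys05 gave 142.7, 143.7 and 183.0, and BAQ12O gave 161.7, 155.4 and 164.1. BAQ12 gave 140.3, 130.1 and 160.8, with a log2 fold change of -0.26 (adjusted p = 0.41) with and -0.34 (adjusted p = 0.25) without replicate 3.

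PMAIP1 (ENSG00000141682, chr18:59899948-59904306), which binds chiefly MCL1, had 41.5, 34.6 and 31.2 normalised counts in Ctrl. The BAQ12 values of 17.4, 30.6 and 21.4 and the BAQ12O values of 26.9, 21.0 and 17.9 were all below Ctrl, whereas the Lys05 values of 28.7, 33.3 and 23.3 and the BAQ13 values of 31.7, 36.5 and 31.0 overlapped it. The log2 fold change was -0.64 with BAQ12 (SE 0.23, adjusted p = 0.279) and -0.69 with BAQ12O (SE 0.23, adjusted p = 0.173). In a fit of only the Ctrl and BAQ12O libraries the latter had an adjusted p of 0.0451, where 8.94% of all genes were called. Without BAQ12 replicate 3, the log2 fold change of PMAIP1 with BAQ12 was -0.60 (adjusted p = 0.428 by limma). PMAIP1 rests on 13 to 50 reads per library.

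BCL2L11 (ENSG00000153094, chr2:111119378-111168447), an activator of BAX and BAK1, had 41.5, 32.4 and 36.7 normalised counts in Ctrl, 35.1, 33.3 and 36.4 with Lys05, 43.1, 36.6 and 38.9 with BAQ12, 46.7, 40.1 and 48.6 with BAQ13, and 47.4, 40.0 and 37.2 with BAQ12O. Every treated group overlapped Ctrl. With BAQ13, the log2 fold change of 0.29 had a 95% interval of -0.05 to 0.63 (adjusted p = 0.354). For BAQ12 the log2 fold change was 0.10 with replicate 3 and 0.11 without it.

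Among the antiapoptotic genes, neither MCL1 nor BCL2L1 separated a treated group from Ctrl. MCL1 (ENSG00000143384, chr1:150574551-150579738) had 527.2, 568.4 and 615.0 normalised counts in Ctrl, 579.2, 619.6 and 550.7 with Lys05, and 545.4, 506.3 and 526.7 with BAQ12O. With BAQ12 it had 598.0, 584.0 and, in replicate 3, 363.0, and with BAQ13 400.3 in replicate 1 beside 511.3 and 601.8. The log2 fold change was -0.19 with BAQ13 (95% interval -0.53 to 0.14, adjusted p = 0.561), and with BAQ12 it was -0.18 with all libraries and 0.05 without replicate 3.

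BCL2L1 (ENSG00000171552, chr20:31664452-31723989) had 107.9, 97.1 and 88.1 normalised counts in Ctrl, 94.8, 70.8 and 87.7 with Lys05, 78.9, 113.1 and 250.0 with BAQ12, 167.0, 109.4 and 85.5 with BAQ13, and 80.8, 95.3 and 106.2 with BAQ12O. The highest 2 values are again those of the libraries that stood apart. With BAQ12 the log2 fold change was 0.42 (adjusted p = 0.564) with replicate 3 and -0.04 (adjusted p = 0.982) without it.

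BCL2 (ENSG00000171791, chr18:63123346-63320128) was counted with only 3 to 12 reads per library. It had 7.82 to 9.96 normalised counts in Ctrl, 5.601 to 7.29 with Lys05, 3.77 to 10.1 with BAQ12, 2.80 to 8.20 with BAQ13 and 6.47 to 9.65 with BAQ12O. The 3.77 and 2.80 are the 3 reads of BAQ12 replicate 3 and of BAQ13 replicate 1, which is the floor. Lys05 lay wholly below Ctrl. Without the filter on low counts, the log2 fold changes of BCL2 were -0.38 with Lys05 (95% interval -1.30 to 0.54, adjusted p = 0.972), -0.32 with BAQ12 (-1.24 to 0.60, adjusted p = 0.852), -0.53 with BAQ13 (-1.45 to 0.39, adjusted p = 0.69) and -0.18 with BAQ12O (-1.10 to 0.73, adjusted p = 1). Each of these intervals includes both 0 and a 2-fold fall of BCL2, and none includes a 2-fold rise. The part of depth in this width was not tested. BAK1, BAD, BCL2L11, BBC3, BCL2L1 and BCL2 overlap genes on the opposite strand in GENCODE 29, and since the strand setting of the counting is not given in the sources used here, reads of the partners cannot be told apart.

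**Figure D2:**
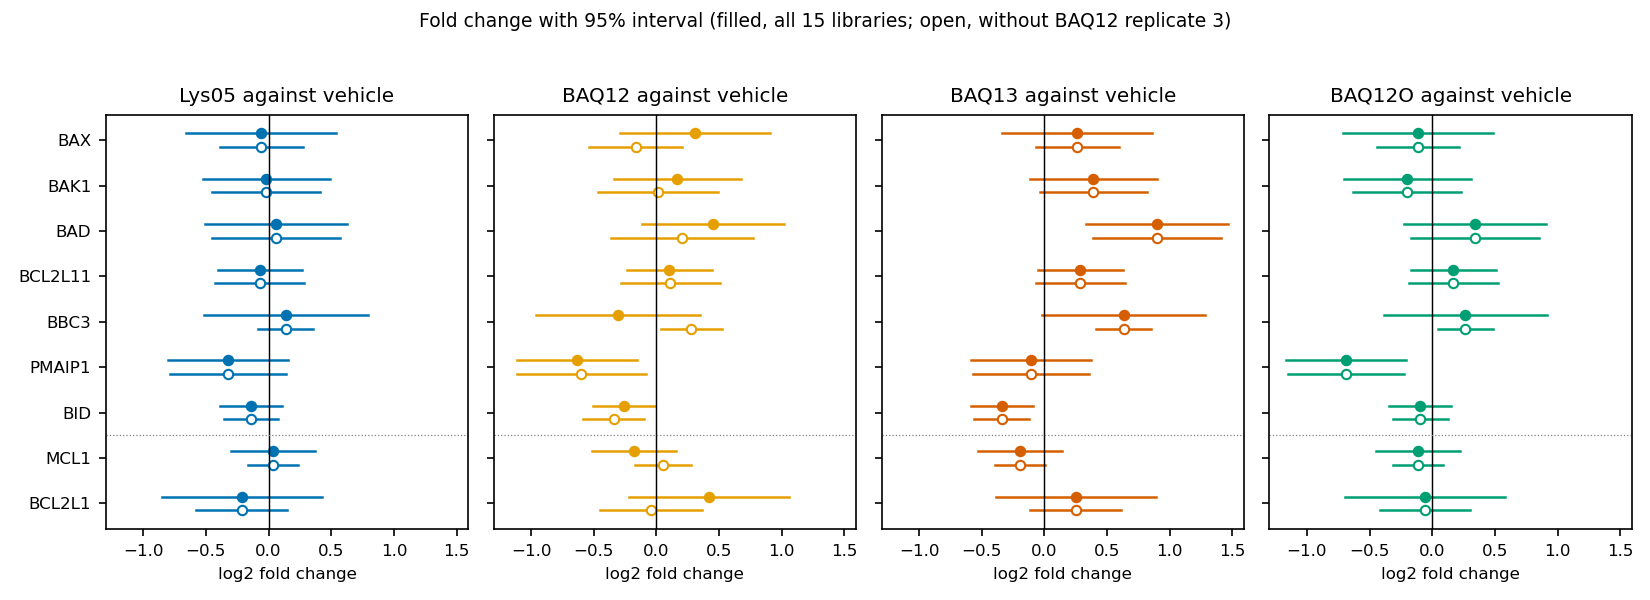
Log2 fold change against Ctrl (vehicle) on the log2(normalised count + 1) scale (x axis) with its 95% interval as a line, for the 9 genes tested in the 4 treatments, from limma fits of all 15 libraries (filled points) and without BAQ12 replicate 3 (open points), with the proapoptotic genes above the dotted line. With BAQ13 and all libraries, the intervals of BAD (0.33 to 1.46) and BID (-0.59 to -0.09) do not reach 0.

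Counted over the 9 members tested, BAQ13 libraries lay wholly above Ctrl for 3 (BAK1, BAD and BBC3) and wholly below for 1 (BID), where 14.5% and 14.4% of all genes tested did so. BAQ12O lay above for 1 (BBC3) and below for 2 (BAX and PMAIP1), beside 12.5% and 13.3%. BAQ12 lay above for 0 and below for 1 (PMAIP1), beside 7.75% and 7.61%, and Lys05 for 0 in both directions, beside 8.24% and 7.37%. The median log2 fold change over the 7 proapoptotic genes was -0.06 with Lys05, 0.10 with BAQ12, 0.29 with BAQ13 and -0.10 with BAQ12O, where the median over all genes tested was within 0.01 of 0. Without replicate 3 the median with BAQ12 was 0.01.

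The balance of the family was described for each library as the mean log2 difference from Ctrl of the 7 proapoptotic genes minus that of MCL1 and BCL2L1. It is a score over genes chosen with results known and carries no test. The balance was 0.0063, 0.0445 and -0.0508 in the 3 Ctrl libraries and 0.1502, 0.3026 and 0.3296 with BAQ13, a mean of 0.26 ± 0.10 (SD, n = 3). All 3 BAQ13 libraries thus lay above all Ctrl libraries. Their proapoptotic side was 0.29 ± 0.02 and their antiapoptotic side 0.03 ± 0.09 (SD, n = 3). In the antiapoptotic mean, MCL1 (log2 fold change -0.19) and BCL2L1 (0.25) went opposite ways, so the balance depends on which of them is counted. Without BBC3 and MCL1, which leaves BCL2L1 alone on the antiapoptotic side, the balance with BAQ13 was -0.02.

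With BAQ12 the balance was -0.0376, -0.1162 and -0.2823, a mean of -0.15 ± 0.12 (SD, n = 3), and without replicate 3 it was -0.08 ± 0.06 (SD, n = 2), so the lean towards the antiapoptotic side was smaller without that library. Lys05 gave -0.0812, 0.0646 and 0.109 (mean 0.03 ± 0.10), and BAQ12O gave 0.271, 0.0758 and -0.2289 (mean 0.04 ± 0.25), both spread around the Ctrl values. Leaving out BAQ12O replicate 1 moved its mean to -0.08 and leaving out replicate 3 to 0.17. The balance also changed with the choice of genes. With only the proapoptotic genes that the study names, it was 0.02 with BAQ12, 0.08 with BAQ12 without replicate 3, and 0.47 with BAQ13.

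**Figure D3:**
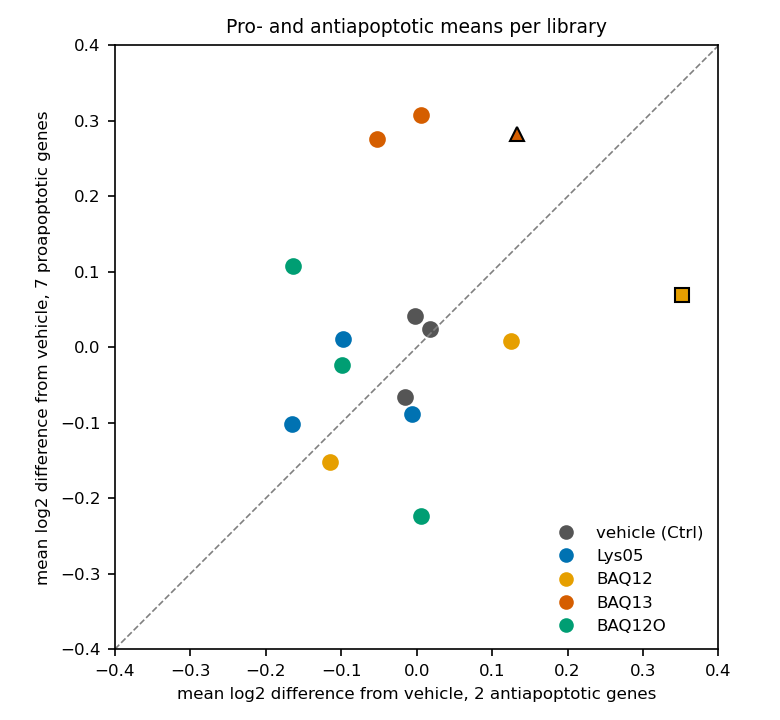
Each point is 1 of the 15 libraries, coloured by group, with the mean log2 difference from Ctrl (vehicle) of MCL1 and BCL2L1 on the x axis and that of the 7 proapoptotic genes on the y axis; the dashed line marks equal values, the square BAQ12 replicate 3 and the triangle BAQ13 replicate 1. The BAQ13 libraries lie 0.15 to 0.33 above the line, the 3 Ctrl libraries within -0.05 to 0.04 of it, and the BAQ12O libraries between -0.23 and 0.27.

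Ratios of single genes within a library differed from pair to pair. The log2 ratio of BBC3 to MCL1, set to 0 at the Ctrl mean, was 0.76, 0.87 and 0.85 with BAQ13, 0.38, 0.41 and 0.34 with BAQ12O, and 0.25, 0.20 and -0.83 with BAQ12, where the last value is replicate 3. In Ctrl it lay between -0.04 and 0.08. The log2 ratio of BAX to BCL2L1, by contrast, was -0.12, 0.02 and 0.13 with BAQ13, within the Ctrl range of -0.18 to 0.18. It was -0.09 in BAQ12 replicate 3, where both genes were high. The other pairings spread widely within BAQ13, where BAX to MCL1 was 1.16, 0.34 and -0.13 and BBC3 to BCL2L1 was -0.52, 0.55 and 1.12. In BAQ12 replicate 3 they reached 1.90 and -2.83.

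The compounds were compared with each other at the same dose and time, in 6 pairs. The counts of members at an adjusted p-value under 0.05 were 0 in each pair by limma, and also by edgeR and DESeq2 on the recovered reads, where limma called 0.162% (BAQ12 against Lys05), 2.66% (BAQ13 against Lys05), 0.248% (BAQ12O against Lys05), 0.562% (BAQ13 against BAQ12), 0.229% (BAQ12O against BAQ12) and 1.39% (BAQ12O against BAQ13) of all genes. In the same order of pairs, edgeR called 0.162%, 3.07%, 0.229%, 0.686%, 0.219% and 1.45% of all genes. DESeq2 called 0.248%, 2.57%, 0.286%, 0.724%, 0.219% and 1.32%. At an unadjusted p-value under 0.05 there were 2 members each for BAQ13 against Lys05, BAQ13 against BAQ12 and BAQ12O against BAQ13, and 0 for the others, beside 14.6%, 8.27% and 11.2% of all genes in the first 3 pairs and 7.17% (BAQ12 against Lys05), 7.36% (BAQ12O against Lys05) and 8.38% (BAQ12O against BAQ12) in the others. These comparisons share libraries with each other and with those against Ctrl.

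Between BAQ12 and BAQ13, which differ by a single methylene unit, BBC3 was higher with BAQ13 by 0.94 on the log2 scale (95% interval 0.29 to 1.59, adjusted p = 0.316), and by 0.35 (0.11 to 0.60, adjusted p = 0.108) without BAQ12 replicate 3. Without BAQ13 replicate 1 as well, the difference was 0.54 with an adjusted p of 1.99e-05, where 2.25% of all genes were called. PMAIP1 was 0.53 higher with BAQ13 (95% interval 0.05 to 1.01, adjusted p = 0.53), and its 3 BAQ13 libraries lay above the 3 BAQ12 libraries. Of all genes tested, 6.02% lay wholly higher in this way. BAD differed by 0.45 (95% interval -0.12 to 1.01, adjusted p = 0.729) with all libraries and by 0.69 (0.13 to 1.26, adjusted p = 0.19) without BAQ12 replicate 3. The intervals of BBC3, PMAIP1 and BAD with all libraries reach beyond 1 on the log2 scale, which is a 2-fold difference.

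Against Lys05, BAD was 0.84 higher with BAQ13 (95% interval 0.28 to 1.40, adjusted p = 0.122) and BCL2L11 0.36 higher (95% interval 0.02 to 0.69, adjusted p = 0.315), each with no overlap between the libraries. BBC3 with BAQ13 also lay wholly above Lys05 and BID wholly below, where 12.3% and 11.5% of all genes tested did so. Without BAQ12 replicate 3, BAD (adjusted p = 0.0344) and BBC3 (0.50 higher, adjusted p = 0.00306, against 0.517 with all libraries) passed the threshold in this pair, where 7.61% of all genes did. Without BAQ13 replicate 1 as well, the adjusted p was 0.0601 for BAD and 2.06e-09 for BBC3, and 5.86% of all genes were called. Between BAQ12O and BAQ13, BAK1 (-0.59, adjusted p = 0.343) and PMAIP1 (-0.59, adjusted p = 0.311) were lower with BAQ12O. The BAQ12O libraries lay wholly below BAQ13 for BAX, BAK1, BAD and PMAIP1 and wholly above for BID. Of all genes tested, 9.32% lay wholly below and 9.34% wholly above. In the same pair without BAQ12 replicate 3, BBC3 was the 1 member past the threshold (-0.37, adjusted p = 0.0495), where 3.65% of all genes did, and without BAQ13 replicate 1 as well the difference was -0.56 (adjusted p = 6.18e-07, 5.02% of all genes called).

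The rest of the apoptosis pathway was read from lists compiled by function. Calls in these lists stand beside 0.238%, 0.981%, 5.77% and 1.48% of all genes called with Lys05, BAQ12, BAQ13 and BAQ12O against Ctrl. With BAQ13 the median log2 fold change was 0.08 over the other BCL2 family genes, -0.01 over the genes of mitochondrial release, -0.14 over the caspases, 0.17 over the inhibitor of apoptosis genes, -0.03 over the death receptor genes and 0.07 over the regulators of the members. Of the other BCL2 family genes, 8 of 15 could be tested and none was called against Ctrl in any treatment, and the best counted, BNIP3L and BCL2L13, which both act in mitophagy, had 232 ± 46 and 186 ± 35 normalised counts with BAQ13 against 194 ± 16 and 191 ± 1 in Ctrl (SD, n = 3). None of the 9 genes of mitochondrial release and the apoptosome was called, and the channel gene VDAC1 had 577 ± 31 with BAQ13 and 580 ± 18 in Ctrl, while VDAC3 had 356 ± 9 and 364 ± 6. None of the 6 caspases tested was called. CASP8, the initiator that cuts BID, had 133 ± 13 in Ctrl, 107 ± 16 with Lys05, 103 ± 12 with BAQ12, 116 ± 12 with BAQ13 and 118 ± 9 with BAQ12O, and CASP2 had 81.7 ± 13.3 in Ctrl and 73.9 ± 4.3 with BAQ13. None of the 7 death receptor genes tested was called, with TNFRSF1A at 557 ± 19 in Ctrl and 555 ± 6 with BAQ13 and the caspase-8 inhibitor CFLAR at 469 ± 40 and 457 ± 25.

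In these lists 3 genes were called higher against Ctrl, all with BAQ13, where 3.58% of all genes tested were called higher. BIRC3 (cIAP2), a ubiquitin ligase of the inhibitor of apoptosis family and a target of NF-κB, was the 1 called of 5 tested in its list. It had 24.1, 21.2 and 25.7 normalised counts in Ctrl and 99.8, 111.2 and 106.4 with BAQ13, a log2 fold change of 2.12 (SE 0.18, adjusted p = 4.26e-07 by limma). The other treated groups lay between 24.8 and 41.0. Of these, Lys05 (27.7 to 31.2) and BAQ12 (33.9 to 35.8) lay wholly above Ctrl but were not called. Of all genes tested, 8.24% and 7.75% lay wholly higher in these 2 groups. BIRC3 was also higher with BAQ13 than with Lys05 (1.80, adjusted p = 6.81e-06), BAQ12 (1.57, adjusted p = 0.000133) and BAQ12O (adjusted p = 1.78e-05). Unlike the members that were high with BAQ13, this gene restrains apoptosis.

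Of the 13 regulators of the members that could be tested, DDIT3 and TRIB3 were called. DDIT3 (CHOP), a stress transcription factor known to induce BCL2L11 and BBC3, had 34.9, 34.6 and 37.6 normalised counts in Ctrl and 104.5, 60.2 and 65.4 with BAQ13 (log2 fold change 1.04, SE 0.21, adjusted p = 0.0053). With Lys05 it had 47.9, 45.8 and 49.5, with BAQ12 45.9, 45.1 and 74.1, and with BAQ12O 60.4, 57.2 and 71.7, all above Ctrl but not called. TRIB3, a pseudokinase induced by DDIT3, had 23.2, 16.7 and 22.9 in Ctrl and 36.4, 31.9 and 51.1 with BAQ13 (log2 fold change 0.88, SE 0.24, adjusted p = 0.0347). Its call was lost without Ctrl replicate 1 (adjusted p = 0.0599), 2 (0.165) or 3 (0.0742), without BAQ13 replicate 1 (0.0757) or 3 (0.146), and with the replicate number as a block (0.0557). ATF4, which acts upstream of both and is named after its values were seen, had 1449 ± 181 with BAQ13 and 1169 ± 61 in Ctrl (SD, n = 3), and did not pass the test (log2 fold change 0.30, adjusted p = 0.23).

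**Figure D4:**
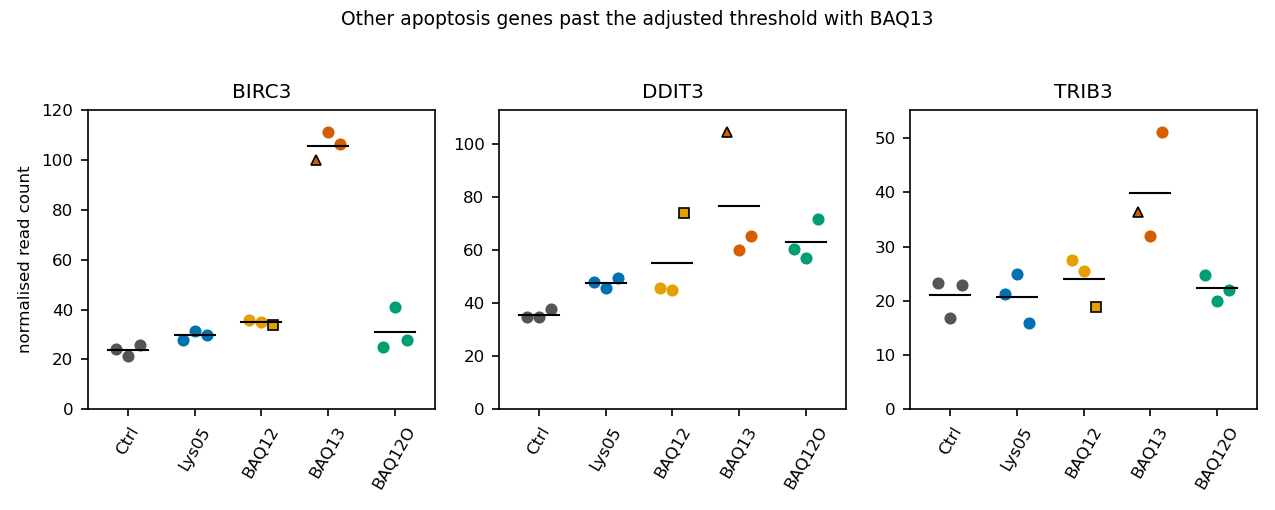
Normalised read count (linear axis from 0) of BIRC3, DDIT3 and TRIB3 in each of the 15 libraries by group, with the group mean as a line and the same marks for BAQ12 replicate 3 and BAQ13 replicate 1. BIRC3 lies at 99.8 to 111.2 in the BAQ13 libraries and at 41.0 or below in every other library.

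The members did not move as a unit. Over the 15 libraries, log2 counts of BAX ran with those of BCL2L1 (Pearson's r = 0.846) and against those of MCL1 (r = -0.832), and MCL1 ran against BCL2L1 (r = -0.921). Over the 14 libraries without BAQ12 replicate 3 these values were 0.583, -0.631 and -0.837. These values describe libraries that share treatments and the 2 libraries that stood apart. The genes most like BAD, the member with the lowest adjusted p, were ZDHHC8P1 (r = 0.928), KCNC4 (0.914) and HMOX1 (0.88) over 15 libraries, and ZDHHC8P1 (0.917), KIF1A (0.902) and KCNC4 (0.9) over 14.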

How the data were processed

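Libraries were grouped by the agent in the sample labels (5 groups of 3). The authors deposited 1 normalised signal per gene and library, a read count divided by a library size factor. STAR, HTSeq, DESeq2 and GRCh38 are named in the submitters' processing notes, and versions are not given in the sources used here. All values were whole multiples of 1 read within 0.01, so reads were recovered.

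Genes were kept by filterByExpr (minimum count 10, total 15), and tested with limma 3.58.1 (trend) on log2(value + 1) over all 15 libraries without covariates, with Benjamini-Hochberg adjustment over 10495 genes. Alternatives were edgeR 4.0.16, DESeq2 1.42.0, TMM scaling, pseudocounts of 0.1 and 5, other filters, only the 6 libraries compared, the study's threshold (2-fold, p of at most 0.05), the replicate block and leaving out libraries. The limits of the floor of 3 reads cover counting error only. Scripts were tested on simulated data (R 4.3.3).

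The members and lists were chosen with earlier results of these data known. Named are all members, list genes called against Ctrl (otherwise the 2 best counted), and the genes most like the member with the lowest p. 56531 of 60107 identifiers are in GENCODE 29.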

Additional observations from a re-analysis of the deposited data

How the results depend on the processing

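No member lost or gained a call against Ctrl with pseudocounts of 0.1 or 5, TMM scaling, no filter, DESeq2, the study's threshold of 2-fold and p of at most 0.05, or the replicate block, with which the number of members called was 0 in all 10 comparisons. In BAQ13 against Ctrl these settings called 5.75%, 5.94%, 5.91%, 2.09%, 5.05%, 2.16% and 4.88% of all genes, in that order. In every other comparison their shares were smaller. Same-numbered libraries of 2 groups did not deviate together (correlations of -0.611 to 0.269, 6 of 30 pairs over 0.1, and 0 comparisons with all 3 over 0.1), so the numbers were not read as pairs. In BAQ13 against Ctrl, 1 member was called with edgeR and with at least 10 reads in every library (BAD in both, beside 6.57% and 7.5% of all genes), and 2 with only the 6 libraries compared (BAD and BBC3, beside 9.36%), and in BAQ12O against Ctrl 2 with only the 6 libraries (BBC3 and PMAIP1, beside 8.94%). Leaving out 1 library gave 0 to 3 calls in BAQ13 against Ctrl, 0 to 2 against Lys05, 0 to 1 in BAQ12O against BAQ13 and 0 in the other comparisons. Every call came without BAQ12 replicate 3, where 13.5%, 7.61% and 3.65% of all genes were called in these pairs, in that order. Without BAQ12 replicate 3 and BAQ13 replicate 1, a choice made after seeing the data, 1 member was called with BAQ12, 2 with BAQ13 and 2 with BAQ12O against Ctrl, beside 2.09%, 11.8% and 9.13% of all genes. In that fit 1 member (BBC3) was also called each in BAQ13 against Lys05, BAQ13 against BAQ12 and BAQ12O against BAQ13, beside 5.86%, 2.25% and 5.02%.

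The balance moved beyond its SD with the genes that entered it: without BBC3 and MCL1 it was -0.40 with BAQ12 and -0.0183 with BAQ13, with the study's 5 genes 0.0235 and 0.47, and with BCL2 included, a choice made after seeing the data, 0.0025 and 0.45. Without replicate 3 as well, also a choice made after seeing the data, these 3 balances with BAQ12 were -0.0862, 0.0824 and -0.0829. Leaving out 1 library gave balances of -0.0083 to 0.09 with Lys05, -0.20 to -0.08 with BAQ12, 0.23 to 0.32 with BAQ13 and -0.08 to 0.17 with BAQ12O. Some signs turned, and BBC3 with BAQ12 among them was called in the fit without both libraries (0.28). BAK1 with Lys05 was 0.0529 by edgeR and 0.0464 by DESeq2. Leaving out 1 library turned BAX (-0.19 to 0.0682), BAK1 (-0.30 to 0.15), BAD (-0.14 to 0.24), BCL2L11 (-0.16 to 0.0182) and MCL1 (-0.0213 to 0.0896) with Lys05, BAX (-0.17 to 0.59), BBC3 (-0.62 to 0.28), MCL1 (-0.31 to 0.0543) and BCL2L1 (-0.044 to 0.78) with BAQ12, PMAIP1 (-0.20 to 0.0047) and BCL2L1 (-0.0103 to 0.47) with BAQ13, and BAK1 (-0.39 to 0.0711) and BCL2L1 (-0.15 to 0.0462) with BAQ12O. Between compounds, single members were followed only where the unadjusted p-value was under 0.05, also a choice made after seeing the data. BCL2 had the fewest reads of the members, followed by BAD and PMAIP1. Neither the part of depth in their results nor the cause of the changes with a library was tested.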
